A study of Mus musculus with 24 samples.

Results

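The comparison described here asks how far the transcriptional response to activated PERK kinase required phosphorylation of eIF2alpha, 8 h after the kinase was switched on. It is the difference of 2 responses, measured on 8 of the 24 arrays of the series: the change from untreated to 8 h of AP20187 in a mouse fibroblast line with mutant eIF2alpha (AA), minus the same change in a line with wild-type eIF2alpha (SS). Both lines expressed Fv2E-PERK, a chimera whose kinase is activated when the added compound AP20187 dimerizes it. Each line was measured untreated and after AP20187 for 4 h and 8 h, with 2 arrays a group, at 2 nm of the compound as the labels spell it. The SS line lacked endogenous PERK (PERK-/-), a background the labels say was chosen to reach high transgene levels, since such clones were not obtained in wild-type cells. The PERK genotype of the AA line is not stated in the labels. Each eIF2alpha genotype is represented by 1 line, so the mutation and any other difference between the 2 lines cannot be told apart, and the level of the transgene in either line was not analysed here. Whether paired arrays stem from independent cultures is not stated, and the p-values then reflect only sample-to-sample spread, which may be technical.

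In the integrated stress response, kinases such as PERK, which senses unfolded protein in the endoplasmic reticulum (ER), phosphorylate the alpha subunit of the translation initiation factor eIF2. Phosphorylated eIF2alpha inhibits eIF2B, lowers general protein synthesis and favours translation of the mRNA for the transcription factor ATF4. ATF4 in turn is known to drive genes for further transcription factors (CHOP, encoded by Ddit3, and ATF3), for the phosphatase subunit GADD34 (Ppp1r15a) that reverses the phosphorylation, and for amino acid transport, synthesis and tRNA charging. In the AA mutant the regulatory serine is replaced by alanine and cannot be phosphorylated.

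All 12422 probe sets other than the array's control probe sets were tested with limma on the log2 scale, and a probe set was called when its Benjamini-Hochberg adjusted p was under 0.05. Levels are deposited ratios, in which 1 is about the median of that probe set over the series. A difference of responses is given as D8, AA minus SS, in log2 units with its standard error (SE). A negative D8 means a response that was lower in the AA line. The 2 arrays of a group correlated at 0.689 to 0.855 over all probe sets, lowest for the AA line at 8 h. The second AA array at 8 h stood apart: its highest correlation with any of the other 11 Fv2E-PERK arrays was 0.689, whereas every other array reached at least 0.798 with another. Fold values in this section are ratios of the means of the 2 arrays of each group.

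At 8 h the response differed between the lines for 258 probe sets, 2.08% of those tested. The AA response was lower for 173 of them (1.39%) and higher for 85 (0.684%). At an unadjusted p under 0.05 limma gave 2368. In the SS line alone, 934 probe sets (7.52%) changed between untreated and 8 h, of which 609 rose (4.9%) and 325 fell (2.62%). In the AA line none of the 12422 (0%) passed the limma test, with 851 at an unadjusted p under 0.05 and a smallest adjusted p of 0.191. The differences in response were therefore mostly differences in what the SS line did. All 173 probe sets with a lower response in AA had a positive SS estimate, and the SS line moved more than the AA line in 171 of them. Over all 12422 probe sets the SS estimate was positive in 6629 and the SS line moved more in 7494, and choosing probe sets by D8 itself favours a positive SS estimate. The median response of the 173 was 1.38 in SS and -0.21 in AA (-0.11 without the second AA array at 8 h). Of the 85 with a higher response in AA, none had a positive SS estimate and the SS line moved more in 72. For these 85 the choice by D8 favours a negative SS estimate. Their median response was -1.48 in SS and 0.17 in AA (0.16 without that array).

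The number of calls depended on every single array. Leaving out an untreated SS array gave 72 (array 1) or 70 (array 2), and leaving out an SS array of 8 h gave 57 or 34. Leaving out an untreated AA array gave 21 or 31. It was 515 without the first AA array at 8 h and 79 without the second, and 74 of those 79 were among the 258. In the SS line, omission of an untreated array gave 337 (array 1) or 448 (array 2) calls, and omission of an 8 h array gave 380 or 162. In the AA line, 50 probe sets were called without its first 8 h array and 0 without any of its other 3 arrays.

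**Figure D1:**
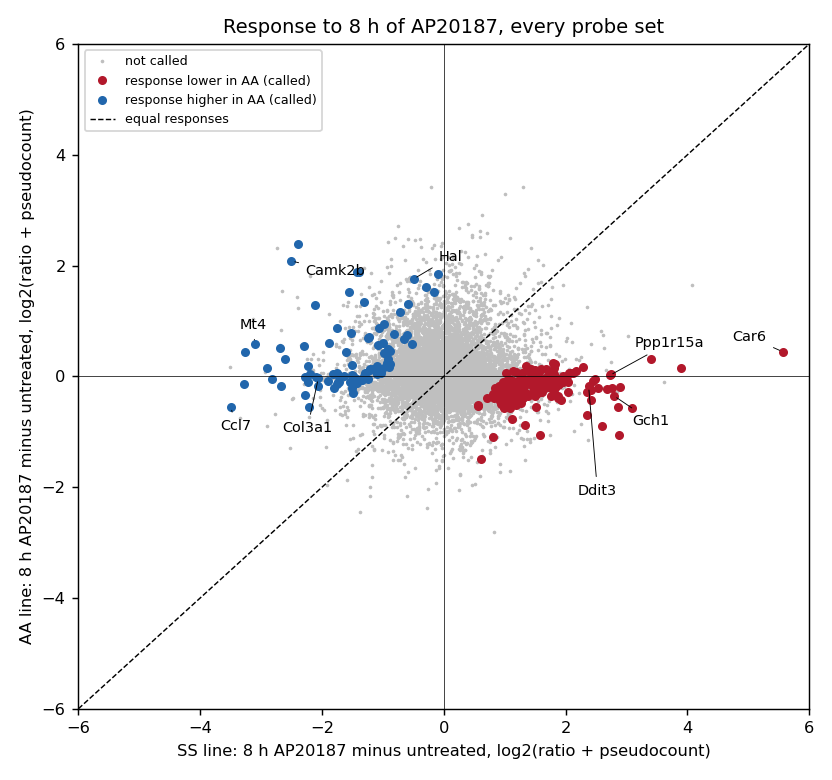
Response to 8 h of AP20187 in the SS line (horizontal axis) and in the AA line (vertical axis), both as log2(ratio + 0.2468), for each of the 12422 probe sets; the dashed line marks equal responses. Red points (173) and blue points (85) are probe sets whose responses differed between the lines, and most of them lie along the horizontal axis, where the SS line moved and the AA line stayed near 0.

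The probe sets that changed in the SS line were also read on the AA arrays. The AA estimates had no part in choosing them, although the AA arrays contributed to the estimate of spread shared by the fit, and with the 4 SS arrays alone limma called 0 probe sets (2275 at an unadjusted p under 0.05). The 609 that rose in SS, by a median of 1.01, had a median AA response of -0.10, with quartiles of -0.21 and 0.04. Only 198 of them (32.5%) moved in the same direction in AA, and 7 reached more than 0.5 of the SS change. The 325 that fell in SS, by a median of -1.10, had a median AA response of -0.03. Of these, 180 (55.4%) moved in the same direction and 5 reached more than 0.5 of the SS change. Over all probe sets the 2 responses had the same sign in 5739 of 12422 (46.2%), and AA reached more than 0.5 of the SS change in 3410. Choosing probe sets by a large SS estimate itself lowers the number that reach this share. Without the second AA array at 8 h the AA medians were -0.01 and 0.01.

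The list of transcription factors of the integrated stress response, on which Fos and Jun were also placed, had the lowest median D8 of the lists. Of 11 measured, 6 responded less in AA (Fos, Ddit3, Atf3, Nupr1, Atf5 and Cebpg) and none responded more, beside 134 lower and 60 higher among all 8251 genes read by 1 probe set each. Jun (1.02) and Cebpd (0.77) had a D8 above 0 that was not called. Cebpd fell in SS (-1.20, limma adjusted p = 0.0439). The list's median D8 was -1.65, against -0.05 for all genes, and its median response was 1.46 in SS and -0.18 in AA. Ddit3 encodes CHOP, a transcription factor linked to cell death under prolonged ER stress. Its level was 0.737 and 0.823 on the untreated SS arrays, 3.1 and 3.83 at 4 h, and 4.94 and 5.23 by 8 h. The AA arrays gave 0.927 and 1.3 without treatment, 1.07 and 1.29 at 4 h, then 0.816 and 1.08 by 8 h. Ddit3 thus rose 6.52-fold in SS at 8 h and lay within the range of the untreated arrays or just below it in AA. Its SS groups did not overlap. The same held, in the line that moved more, for all 194 genes called in D8 when read by 1 probe set each, so non-overlap adds nothing to a call. The D8 of Ddit3 was -2.56 ± 0.28 (SE; limma adjusted p = 0.00965).

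Atf3, a stress-induced repressor and partner of CHOP, began at 3.14 and 2.71 in SS and reached 26.8 and 29.5 at 4 h, with 16.1 and 18.9 left by 8 h. Its AA levels were 0.996 and 0.851 before treatment and 0.938 and 0.827 after 8 h. The 8 h levels in SS were thus lower than those at 4 h but still 5.99-fold above the start, and D8 was -2.53 ± 0.29 (limma adjusted p = 0.00965). A second Atf3 probe set was also called (D8 -1.55), whereas the third gave 0.16. Cebpg, a dimer partner of ATF4, rose from 1.25 and 1.47 to 4.11 and 4.23 in SS and read 1.09 and 1.04, then 0.856 and 0.959, in AA (D8 -1.65 ± 0.20, limma adjusted p = 0.0107). Atf5, a relative of ATF4 that is itself translationally controlled, had a D8 of -1.85. Nupr1, a small stress-induced chromatin protein, had a D8 of -2.03.

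Atf4 itself did not pass the test for the difference. Its mRNA level in SS moved from 1.38 and 1.54 to 2.88 and 3.67, a 2.24-fold rise that was called in that line (limma adjusted p = 0.00815). The AA arrays stood at 0.8 and 0.908 before treatment and reached 1 and 1.09 by 8 h, 1.23-fold. The groups did not overlap in either line, and D8 was -0.80 ± 0.22 (limma adjusted p = 0.104).

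Among 16 measured feedback and effector genes of the response, 5 responded less in AA (Gadd45a, Ppp1r15a, Ddit4, Trib3 and Ndrg1) and none more, with a list median D8 of -0.78. Gadd45a, a growth arrest and DNA damage gene, read 2.26 and 2.33 in untreated SS cells, 18.2 and 17.7 at 4 h, then 17.2 and 16.8 by 8 h. The AA arrays gave 1.18 and 1.04 without treatment, 1.2 and 1.35 at 4 h, then 0.917 and 0.924 by 8 h. The SS levels at 4 h and 8 h were thus close to each other, and both AA arrays at 8 h lay below both untreated ones. With Mt4, Gadd45a had the smallest adjusted p of the comparison (D8 -2.97 ± 0.23, limma adjusted p = 0.00369). Ppp1r15a, the feedback phosphatase subunit, went from 1.49 and 1.19 to 9.74 and 10.6 in SS, a 7.6-fold rise. In AA its arrays read 0.988 and 1.11 untreated and 1.01 and 1.11 at 8 h (D8 -2.71 ± 0.25, limma adjusted p = 0.00564).

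Trib3 encodes a pseudokinase that binds ATF4 and CHOP and restrains them. It went from 1.66 and 2.49 to 7.4 and 11.6 in SS and from 1.13 and 0.876 to 1.15 and 0.954 in AA. The spread of its SS arrays was wider than that of Gadd45a or Ppp1r15a, and its D8 of -2.004 ± 0.41 lay at the threshold (limma adjusted p = 0.0495). Ddit4, an inhibitor of mTORC1 signalling, had a D8 of -2.11, and the stress-responsive gene Ndrg1 one of -1.69. The probe set of Eif2ak3, the gene for PERK, did not pass in either line and had a D8 of 0.06 ± 0.32 (limma adjusted p = 0.943). Untreated, it read 0.791 and 0.466 in SS and 1.61 and 1.2 in AA. That untreated difference, AA minus SS, was called (0.93, limma adjusted p = 0.0305). The SS line was PERK-/-, and which transcript this probe set reads in either line was not tested. Chac1, Sesn2 and Eif2s1, planned as named genes, had no probe set assigned to them alone.

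**Figure D2:**
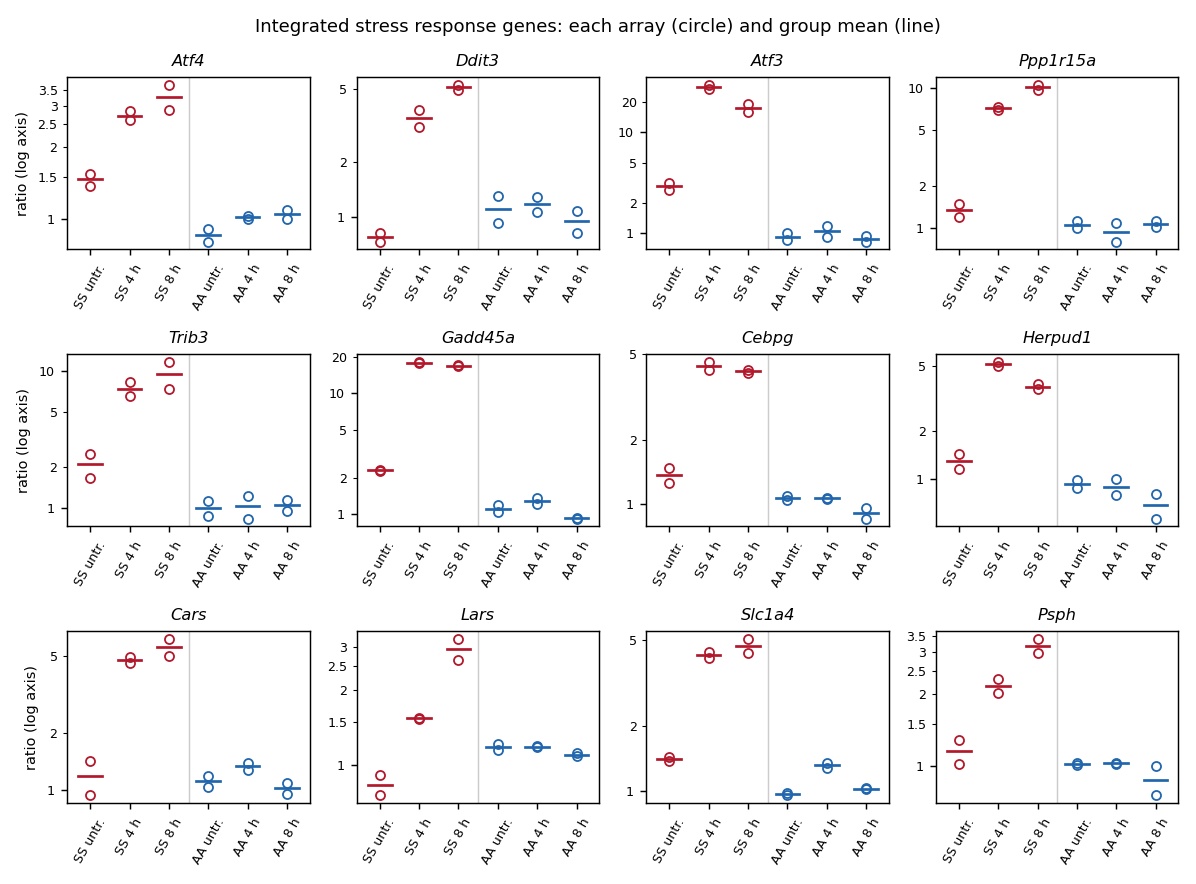
Deposited ratio (log axis, with its own range in each panel) of 12 genes of the integrated stress response on the 12 Fv2E-PERK arrays; circles are arrays, lines are the means of the 2 arrays of a group, red is SS and blue AA. In each panel both SS arrays at 8 h lie above both untreated SS arrays, as for Ppp1r15a (1.49 and 1.19 to 9.74 and 10.6), while the AA groups stay near their starting level. Such a separation, in the line that moved more, was shared by all 194 called genes and adds nothing to a call.

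Genes that supply amino acids and charge tRNAs were the next group. Of 19 measured cytosolic aminoacyl-tRNA synthetases, which attach amino acids to tRNA, 15 rose in the SS line and 0 fell. Their D8 was below 0 in 18 of 19, with a median of -0.96, and 7 passed the test for the difference. Among all 8251 genes read by 1 probe set each, 466 rose and 237 fell in SS, and 4394 had a D8 below 0. Of the 8251, 134 responded less in AA and 60 more. These counts are also the background for the lists that follow. Cars, the cysteine enzyme, went from 0.94 and 1.42 to 5.01 and 6.17 in SS and from 1.19 and 1.04 to 0.959 and 1.09 in AA (D8 -2.15 ± 0.28, limma adjusted p = 0.0129). Lars, the leucine enzyme, went from 0.756 and 0.912 through 1.55 and 1.54 at 4 h to 2.65 and 3.23 in SS, and from 1.22 and 1.15 to 1.12 and 1.09 in AA (D8 -1.65 ± 0.21, limma adjusted p = 0.0118). Lars therefore still rose between 4 h and 8 h in SS, while Cars was already at 4.62 and 4.94 at 4 h. The other 5 were Tars (D8 -1.46), Nars (-1.45), Farsb (-1.43), Aars (-1.16) and Iars (-0.96). In the AA line the median response of the 19 was -0.09.

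Of 13 measured amino acid transporters, Slc1a4 alone passed the test, and 12 of 13 had a D8 below 0 (median -0.83). Slc1a4, a carrier of neutral amino acids, read 1.38 and 1.44 untreated and 4.34 and 5.04 at 8 h in SS, against 0.978 and 0.956 and then 1.03 and 1.02 in AA. Its D8 was -1.50 ± 0.19 (limma adjusted p = 0.0129). Slc3a2, the heavy chain shared by several carriers, had a D8 of -1.05 (limma adjusted p = 0.0927), and Slc7a11, the cystine carrier, one of -0.96 ± 0.51 (limma adjusted p = 0.349). The untreated AA arrays of Slc7a11 read 0.538 and 0.186, so this gene was measured with a wide spread.

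Among 14 measured genes of amino acid synthesis and one-carbon metabolism, 6 rose in SS, and Psph alone passed for the difference. Psph, the last enzyme of serine synthesis, went from 1.02 and 1.28 to 2.98 and 3.42 in SS and from 1.03 and 1.01 to 0.749 and 0.992 in AA (D8 -1.49 ± 0.24, limma adjusted p = 0.0257). Asns, asparagine synthetase, had 2 probe sets that differed in size. The one chosen by rule gave -1.24 ± 0.26 and missed the threshold (limma adjusted p = 0.0566), and the other gave -3.09 ± 0.28 and was called (limma adjusted p = 0.00564). Aldh18a1, for proline synthesis, had a D8 of -1.24 (limma adjusted p = 0.0576).

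Genes of the ER stress response differed among themselves. Of 25 measured ER chaperones and folding enzymes, 3 responded less in AA and the list median D8 was 0.05. Those 3 were Ero1a and Ero1b, the oxidases that renew disulfide bond formation in the ER, and Cnpy2, an ER-resident protein. Ero1a went from 0.835 and 0.871 to 3.59 and 3.68 in SS, a 4.26-fold rise, and from 0.862 and 0.738 to 0.863 and 1.11 in AA (D8 -1.59 ± 0.22, limma adjusted p = 0.0142). Ero1b had a D8 of -1.74 and Cnpy2 one of -1.49. Hspa5, the main ER chaperone BiP, read 0.802 and 1.03 untreated and 1.04 and 1.44 at 8 h in SS, and 0.799 and 0.973 then 0.649 and 0.75 in AA. It did not pass in SS (limma adjusted p = 0.314) or for the difference (D8 -0.61 ± 0.26, limma adjusted p = 0.253). Dnajb9, a cochaperone of BiP, had a D8 of -1.67 ± 0.37 (limma adjusted p = 0.0611).

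Of 21 measured genes of ER-associated degradation and the unfolded protein response, Herpud1 and Xbp1 passed and the list median D8 was -0.08. Herpud1, a membrane protein of the degradation machinery, went from 1.16 and 1.43 to 4.99 and 5.32 at 4 h in SS, then stood at 3.6 and 3.89 by 8 h. Its AA levels were 0.994 and 0.892 before treatment and 0.818 and 0.574 after 8 h (D8 -1.73 ± 0.25, limma adjusted p = 0.0195). Xbp1, the transcription factor whose mRNA is spliced by IRE1, went from 1.12 and 1.21 to 2.87 and 3.34 in SS and from 1.03 and 1.11 to 0.88 and 0.615 in AA (D8 -1.66 ± 0.24, limma adjusted p = 0.0195). In both genes both AA arrays at 8 h lay below both untreated ones, and the AA fall was not called. The arrays do not separate spliced from unspliced Xbp1 mRNA.

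**Figure D3:**
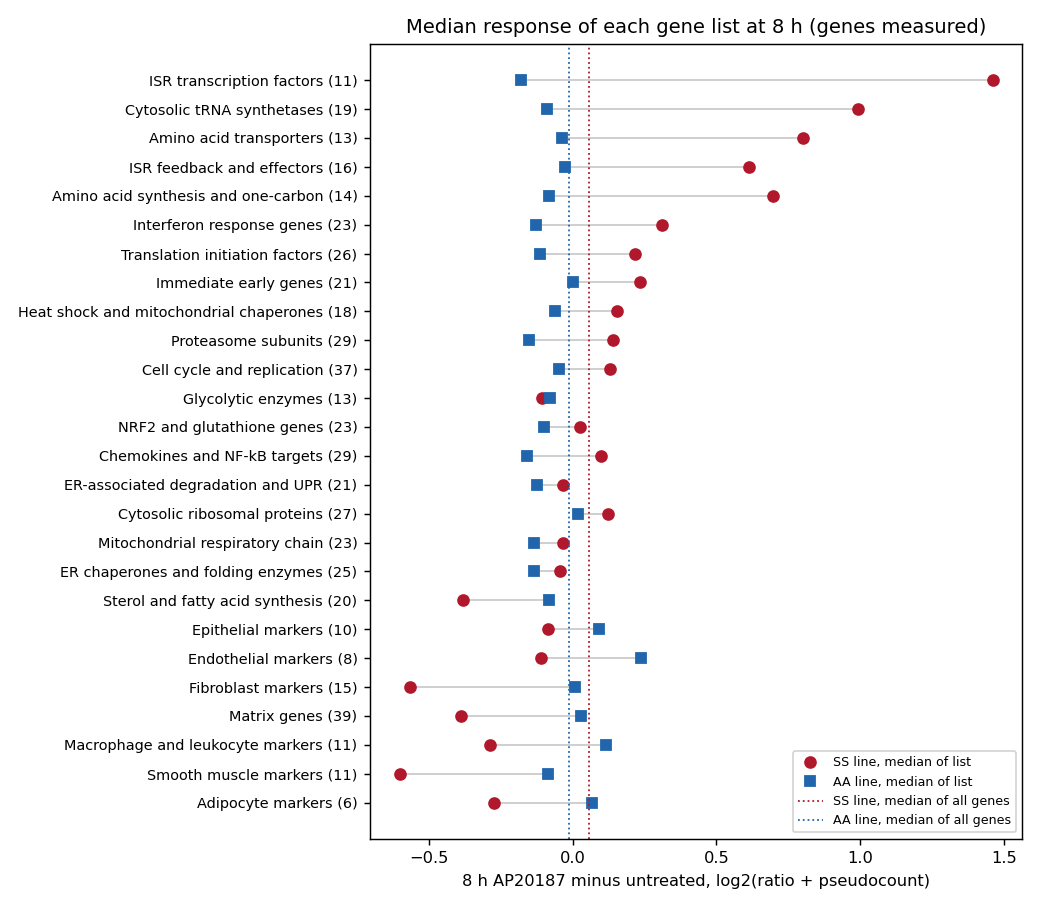
Median response to 8 h of AP20187, as log2(ratio + 0.2468), of each gene list in the SS line (red circles) and the AA line (blue squares); numbers in brackets are genes measured, and dotted lines are the medians over all 8251 genes. Transcription factors of the response (1.46 in SS, -0.18 in AA) and tRNA synthetases (0.99 and -0.09) have the widest gaps, and matrix genes lie on the other side (-0.39 and 0.03).

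Promoters were read because ATF4 is known to bind composite C/EBP-ATF elements whose core can be written TGATGNAA, or TTNCATCA on the opposite strand. Windows of 250 bases before to 50 after the annotated start were taken from RefSeq (GRCm38.p6) and searched for this motif on both strands. It was in 19 of 116 genes with a lower response in AA that had a window (16.4%) and in none of 49 genes with a higher response. It was in 197 of 6572 measured genes (3.0%) and in 1304 of all 32851 windows (3.97%). The form TTGCATCA accounted for 12 of the 21 sites. It was in 11 of the 116 genes (9.48%), against 53 of all measured genes (0.806%). These shares are descriptions, since a match in a window is not evidence of binding. Of the 19 genes, sites follow for the 9 that are named in this section, each as 20 bases read so that the motif, in capitals, runs TTNCATCA:
Atf3: tcgcacTTGCATCAccaagt
Nupr1: gccagaTTGCATCAgacagg
Trib3: tcaggtTTACATCAgccggg
Herpud1: ggcgggTTGCATCAgcccgc
Slc1a4: cctgcgTTGCATCAtctcca
Cnpy2: gggaaaTTGCATCAgtccag
Tars: gtcccgTTGCATCAgctggt
Aars: tgagcaTTGCATCAgccgag
Iars: tcagtaTTGCATCAcctcca
These sites lie at chr1:191183430-191183449 for Atf3, chr7:126625567-126625586 for Nupr1, chr2:152344033-152344052 for Trib3, chr8:94386311-94386330 for Herpud1, chr11:20332704-20332723 for Slc1a4, chr10:128322332-128322351 for Cnpy2, chr15:11399660-11399679 for Tars, chr8:111033724-111033743 for Aars and chr13:49682131-49682150 for Iars. The motif starts 110 bases or so before the start of the gene in Atf3 (-110), Nupr1 (-110), Herpud1 (-112), Aars (-112) and Cnpy2 (-121), near the start in Slc1a4 (-4) and Tars (-15), 14 bases after it in Trib3 and 7 after it in Iars. Aars also held a TTTCATCA site 9 bases after its start.

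The 250 bases upstream of the start are shown for Atf3 and Herpud1, the 2 genes planned by name whose upstream stretch held the motif, read 5′ to 3′ on the strand of the gene with the motif in capitals. The Atf3 stretch is chr1:191183334-191183583 on the minus strand and the Herpud1 stretch is chr8:94386179-94386428 on the plus strand (GRCm38.p6):
Atf3: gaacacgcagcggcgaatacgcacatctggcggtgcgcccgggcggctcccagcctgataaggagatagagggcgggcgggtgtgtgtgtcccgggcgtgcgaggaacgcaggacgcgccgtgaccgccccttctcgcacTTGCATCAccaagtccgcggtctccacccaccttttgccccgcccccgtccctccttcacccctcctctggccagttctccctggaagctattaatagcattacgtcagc
Herpud1: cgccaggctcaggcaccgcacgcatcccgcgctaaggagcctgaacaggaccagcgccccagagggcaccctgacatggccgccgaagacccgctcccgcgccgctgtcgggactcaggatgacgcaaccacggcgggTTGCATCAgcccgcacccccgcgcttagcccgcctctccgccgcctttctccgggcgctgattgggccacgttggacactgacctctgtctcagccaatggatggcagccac
Each of the 2 stretches held 1 match. The windows of Ddit3 and Ppp1r15a held no match to these letters.

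Immediate early genes, which cells switch on within minutes of a signal, were also among the calls. Of 21 measured, Fos, Egr1 and Klf4 responded less in AA and none more, with a list median D8 of -0.32. Fos and Jun are also on the list of transcription factors above, so the call of Fos is counted in both lists. Fos, a subunit of AP-1, read 1.02 and 1.06 untreated, 19.1 and 21.7 at 4 h, then 7.66 and 9.18 by 8 h in SS. The AA arrays gave 0.482 and 0.316 without treatment, 0.383 and 0.378 at 4 h, then 0.354 and 0.469 by 8 h. The SS level was thus higher at 4 h than at 8 h, and D8 was -2.71 ± 0.26 (limma adjusted p = 0.00564). Egr1, a zinc finger factor, went from 0.864 and 0.747 to 4.06 and 4.91 in SS and from 0.287 and 0.421 to 0.401 and 0.379 in AA (D8 -2.07 ± 0.26, limma adjusted p = 0.0129). Klf4, a factor of the Krüppel family, had a D8 of -1.36. The other probe sets of Fos (0.13) and Egr1 (0.86) had the opposite sign and were not called.

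The most negative D8 belonged to Car6, a secreted carbonic anhydrase. Its SS arrays read 4.78 and 0.99 untreated, 12.9 and 11.9 at 4 h, then 97.2 and 143 by 8 h, a 41.7-fold rise. The AA arrays read 1.01 and 1.13 untreated and 1.3 and 1.83 at 8 h (D8 -5.12 ± 0.81, limma adjusted p = 0.0253). The untreated SS arrays disagreed widely, and the SE was among the largest of the named genes. Gch1, the first enzyme of tetrahydrobiopterin synthesis, went from 3.09 and 5.06 to 28.1 and 29.6 in SS and from 1.01 and 0.777 to 0.936 and 0.422 in AA (D8 -3.14 ± 0.45, limma adjusted p = 0.0179). Kitl, the ligand of the receptor KIT, went from 1.3 and 1.33 to 7.13 and 8.42 in SS. Its AA arrays started at 5.65 and 5.48 and read 5.48 and 2 at 8 h, so the second AA array at 8 h lay far below the first. The D8 of Kitl was -3.05 ± 0.56 (limma adjusted p = 0.0366), and without that array it was -2.38.

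The other genes with the most negative differences included Akap8l, which encodes a nuclear relative of the anchoring protein Akap8. It went from 1.03 and 0.966 to 7.71 and 7.81 in SS and from 2.44 and 2.32 to 2.42 and 1.62 in AA. Its D8 was -2.92 ± 0.31 (limma adjusted p = 0.00938). Tspyl4, of the nucleosome assembly protein family, had a D8 of -2.86, and Usp17la, a deubiquitinating enzyme, one of -3.41. Stmn3, a microtubule regulator of the stathmin family, differed in form: it rose from 0.323 and 0.191 to 1.01 and 1.52 in SS and read 2.8 and 2.65 untreated and 1.24 and 1.12 at 8 h in AA (D8 -2.64 ± 0.30, limma adjusted p = 0.00965). Part of the Stmn3 difference was thus a lower level in treated AA cells, which was not called in that line. At 4 h its AA arrays read 0.426 and 0.372, a response of -2.20 that just missed the threshold (limma adjusted p = 0.053). Outside these groups, Ccnd2, encoding cyclin D2, was the single call among 37 cell cycle genes (D8 -1.38), and Nfkb2, an NF-kB subunit, was lower among the chemokine and NF-kB genes (D8 -1.22).

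Genes whose response was higher in AA were mostly genes that fell in the SS line. Many of them were already lower in untreated AA than in untreated SS cells. The untreated difference, AA minus SS, had a median of -0.75 over the 85 probe sets and was above 0 in 24, beside 6985 of all 12422. The same untreated arrays enter D8, and whether the starting level has a part in these differences was not tested. Of 39 measured extracellular matrix genes, 13 fell in SS and 0 rose. Of the 39, 4 passed for the difference, all higher in AA (Col3a1, Sparc, Col1a2 and Lox), 34 had a D8 above 0 and the median was 0.45. Among all 8251 genes, 237 fell and 466 rose in SS, 60 passed as higher in AA, and 3857 had a D8 above 0. Col3a1, a fibrillar collagen chain, read 2.15 and 1.66 untreated, 0.582 and 0.725 at 4 h, then 0.299 and 0.234 by 8 h in SS, a 7.14-fold fall. In AA it read 0.767 and 1.02 untreated and 0.874 and 0.845 at 8 h (D8 2.03 ± 0.27, limma adjusted p = 0.0135). Another Col3a1 probe set was also called (D8 2.77) and the third gave 1.61 (limma adjusted p = 0.0556). Lox, the enzyme that crosslinks collagen, went from 0.942 and 1.06 to 0.145 and 0.117 in SS and from 2.35 and 2.29 to 2.21 and 2.07 in AA (D8 1.62 ± 0.20, limma adjusted p = 0.0107). A second Lox probe set gave -0.46 and was not called.

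Sparc, a collagen-binding matrix protein, went from 1.77 and 1.99 to 0.385 and 0.38 in SS and from 1.21 and 1.65 to 1.6 and 1.39 in AA (D8 1.82 ± 0.24, limma adjusted p = 0.0141). Col1a2, a chain of type I collagen, fell 5.55-fold in SS and had a D8 of 1.65. Fmod, a small proteoglycan of collagen fibrils that was not on the matrix list, went from 8.51 and 12.8 to 0.999 and 0.751 in SS, and from 0.97 and 1.2 to 1.19 and 2 in AA. Its D8 was 3.70 ± 0.42 (limma adjusted p = 0.00965), and its other probe set gave -0.89 and was not called. Untreated SS cells lay far above untreated AA cells in Fmod, and at 8 h the lines were at like levels.

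**Figure D4:**
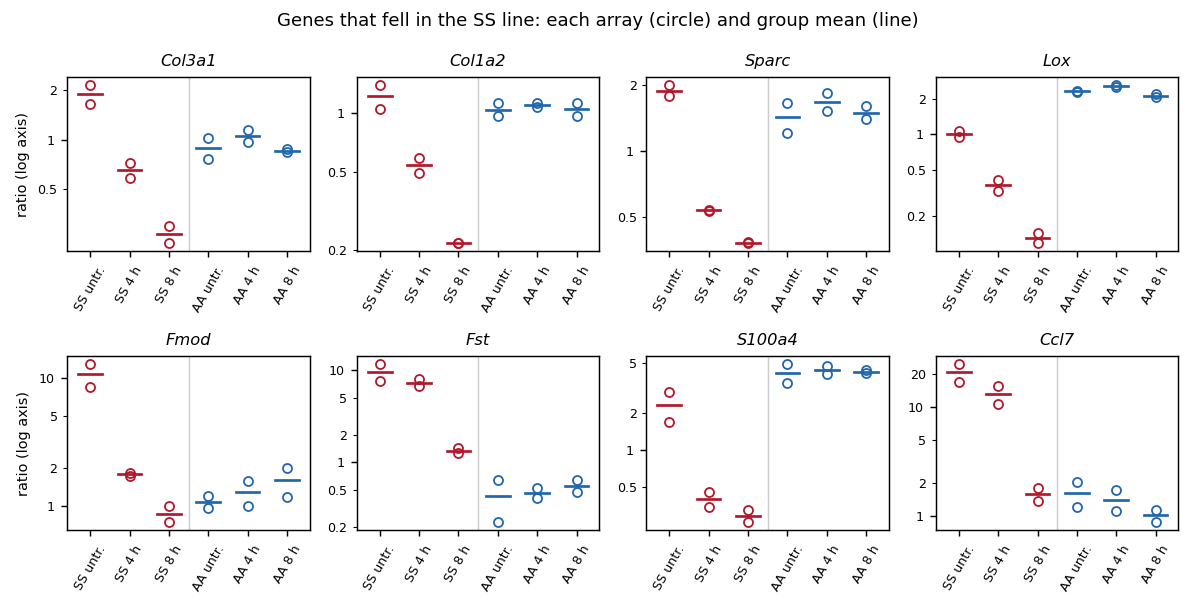
Deposited ratio (log axis, with its own range in each panel) of 8 genes that fell in the SS line, on the 12 Fv2E-PERK arrays; circles are arrays, lines are the means of the 2 arrays of a group, red is SS and blue AA. Both SS arrays at 8 h lie below both untreated SS arrays in every panel (Col3a1 2.15 and 1.66 to 0.299 and 0.234), as the rule for naming genes favoured. Fst and Ccl7 fell mainly between 4 h and 8 h.

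Ccl7, a monocyte chemokine, read 16.9 and 24.8 untreated, 10.6 and 15.5 at 4 h, then 1.38 and 1.82 by 8 h in SS, a fall of 13-fold. In AA it read 1.22 and 2.05 untreated and 1.15 and 0.879 at 8 h (D8 2.95 ± 0.48, limma adjusted p = 0.0268). Cx3cl1, the membrane-bound chemokine fractalkine, went from 11.5 and 14.4 to 2.88 and 4.15 in SS (D8 1.87), and its other probe set gave -1.57 and was not called. Among 29 chemokine and NF-kB genes these 2 were the only calls with a higher response in AA, and Nfkb2 was the only one with a lower response. Fst, an inhibitor of activins, read 7.59 and 11.7 untreated, 6.73 and 7.93 at 4 h, then 1.25 and 1.44 by 8 h in SS, with AA arrays between 0.223 and 0.643 untreated and at 8 h (D8 2.92 ± 0.45, limma adjusted p = 0.0229). Vegfd, a ligand of lymphatic growth receptors, fell 11.2-fold in SS (D8 3.19). Cpxm1, of the carboxypeptidase family, had a D8 of 3.05, and Spock2, a matrix proteoglycan, one of 2.85.

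Camk2b, a subunit of a calcium-dependent kinase, had the most positive difference of the genes named by rule. It went from 8.5 and 5.73 to 0.967 and 1.09 in SS and from 1.03 and 1.15 to 3.47 and 8.42 in AA (D8 4.59 ± 0.54, limma adjusted p = 0.0107). The AA change was not called (limma adjusted p = 0.388) and its 2 arrays at 8 h differed widely. The AA arrays at 4 h read 3.82 and 3.66, and that change was not called either (limma adjusted p = 0.827). Mt4, a metallothionein, went from 19.8 and 21.1 to 2 and 2.32 in SS and from 2.12 and 2.54 to 3.85 and 3.42 in AA (D8 3.70 ± 0.29, limma adjusted p = 0.00369), and its AA change was not called. Slc6a4, the serotonin transporter, had a D8 of 3.41 with an AA change that was not called, and Tpbpa, a trophoblast protein, one of 3.08. Asgr1, a receptor subunit known from liver, had a D8 of 3.30 and Rpl39l, a ribosomal protein paralog, one of 2.64. In Tpbpa, Asgr1 and Rpl39l both AA arrays at 8 h lay above both untreated AA arrays (Tpbpa 2.1 and 1.29 untreated, 5.56 and 4.89 at 8 h), and the AA change was not called in any of the 3. The SS change of Asgr1 was not called either (limma adjusted p = 0.0669).

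In 15 of the 258 probe sets the AA estimate was the larger one in size, 13 with a higher and 2 with a lower response in AA. Kif3a, a kinesin motor subunit, had an AA response of -1.49 and an SS response of 0.62. Acta1, skeletal muscle actin, had -1.10 in AA and 0.81 in SS. Hal, histidine ammonia-lyase, read 1.06 and 1.58 untreated, 0.962 and 0.793 at 4 h, then 3.97 and 6.24 by 8 h in AA, against 1.39 and 1.6, 3.11 and 2.85, and 1.04 and 0.937 in SS. Its D8 was 2.25 ± 0.34 (limma adjusted p = 0.0218). Hal was also the single probe set (0.00805% of those tested, the same share for calls in the higher direction) whose change from 4 h to 8 h differed between the lines, by 3.61 (limma adjusted p = 0.0446, with 1746 probe sets at an unadjusted p under 0.05). Hal was higher at 8 h than at 4 h in AA and lower in SS, with no overlap between the arrays of the 2 times in either line. The call was lost in 7 of the 8 omissions of a single array, all but that of the first AA array at 8 h. It was also lost with the replicate block, with an untrended prior, with the 8 arrays compared alone and with all 24 arrays in the fit.

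At 4 h the corresponding difference of responses shares the untreated arrays with D8, so the values are only set side by side. Limma called 60 probe sets at 4 h, 47 with a lower and 13 with a higher response in AA. For the 173 probe sets called lower at 8 h the median difference was -0.96 at 4 h and -1.55 at 8 h, and for the 85 called higher it was 0.99 and 1.71. The difference was larger at 4 h than at 8 h in Fos (-4.03 and -2.71) and in Atf3 (-3.02 and -2.53). Cnpy2 (-0.22 and -1.49), Ccnd2 (0.27 and -1.38), Ccl7 (0.50 and 2.95) and Fst (0.51 and 2.92) had small differences at 4 h. None of these was called in the test between 4 h and 8 h, so no difference between the times was shown for them.

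Tunicamycin blocks N-glycosylation in the ER and so causes ER stress without the chimera. The series holds 12 arrays of other lines, untreated or given 2 ug/ml, in wild-type, ATF4-/- and PERK-/- fibroblasts, 2 arrays a group, none of them used in D8. The labels give 6 h for the wild-type and ATF4-/- cells and no time for the PERK-/- cells. The 127 probe sets called lower in D8 that were never at the floor value of 0.01 on those arrays had a median tunicamycin response of 0.47 in wild-type cells, 0.28 in ATF4-/- and 0.11 in PERK-/- cells. Of the 127, 110 were above 0 in wild-type, 106 in ATF4-/- and 79 in PERK-/- cells. The 46 called higher in D8 had medians of -0.42, -0.34 and -0.07, and all 7387 such probe sets had medians of 0.02, 0.00 and 0.00. In the same order of lines, 9, 7 and 20 of the 46 were above 0, and 3924, 3714 and 3709 of the 7387. Among named genes, Ddit3 had estimates of 3.64, 2.58 and 0.40 in wild-type, ATF4-/- and PERK-/- cells, and Atf3 1.92, 0.45 and 0.41. Herpud1 had 2.74, 2.19 and 1.23, and Lars 0.77, 0.13 and 0.36. Limma called Ddit3 in wild-type and ATF4-/- cells and Atf3 in wild-type cells, and neither Herpud1 nor Lars in any line. For none of these genes was a difference in response from wild-type cells called (Ddit3 in PERK-/- cells, limma adjusted p = 0.0704). Hspa5, which did not respond to AP20187 by this test, had estimates of 1.21, 1.22 and 1.24, called in wild-type and ATF4-/- cells.

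**Figure D5:**
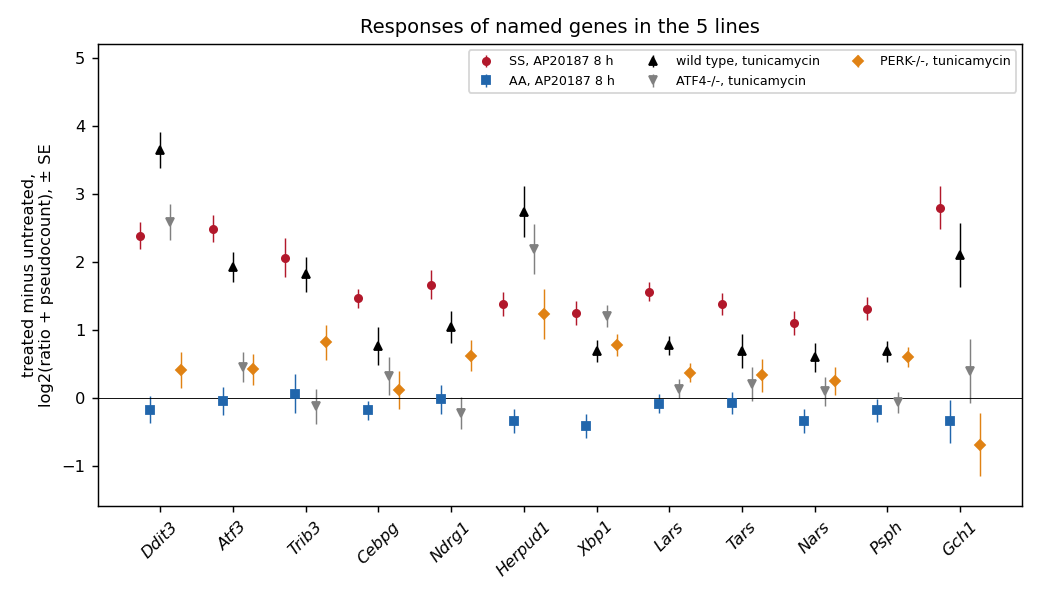
Response of 12 named genes, treated minus untreated as log2(ratio + 0.2468), to 8 h of AP20187 in the SS and AA lines and to tunicamycin in wild-type and ATF4-/- lines (6 h) and a PERK-/- line (time not stated); bars are SE from limma, with 2 arrays a group and the tunicamycin arrays fitted on their own. Ddit3 is at 3.64 in wild-type cells with tunicamycin and Atf3 at 1.92, and the AA points lie near 0 or below it in all 12 genes.

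Markers of cell type were compared as well, since the genes that fell in SS include fibroblast genes. All 15 fibroblast markers were measured and none was at the floor. Their summed level was 17.2 to 18.4 on untreated SS arrays and 9.43 to 9.92 at 8 h, and 19.8 to 23.2 and 20.2 to 21.8 in AA. Of the 15, 4 had a called D8, all higher in AA: Col3a1, Col1a2, S100a4 and Thy1. In SS alone 6 fell and 1 rose, Ddr2, a collagen receptor (0.70, limma adjusted p = 0.033; D8 -0.65). Fap, a surface protease, had a D8 of -1.64, and Fn1, fibronectin, and Vim, vimentin, had SS responses of 0.02 and -0.05; none of these 3 was called. S100a4, a calcium-binding protein of motile cells, went from 1.67 and 2.92 to 0.257 and 0.323 in SS and from 3.48 and 4.96 to 4.41 and 4.18 in AA. Thy1, a surface glycoprotein, had a D8 of 1.34. In bulk RNA, fewer cells of a type and less RNA per cell cannot be told apart.

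None of 11 smooth muscle, 11 macrophage and leukocyte, 10 epithelial, 8 endothelial and 6 adipocyte markers was called in D8 by limma, and none of these was at the floor on every array. Summed epithelial markers were 72.9 to 129 untreated and 78.6 to 110 at 8 h in SS, and 23.5 to 23.6 and 15.8 to 21 in AA. Summed smooth muscle markers were 22.3 to 23.7 and then 17.2 to 17.9 in SS, and 12.1 to 15.1 and then 13.1 to 14.1 in AA. Summed macrophage and leukocyte markers were 14.4 to 14.6 and 12.5 to 12.7 in SS, and 15.4 to 22 and 21.4 to 27.9 in AA. Summed endothelial markers were 9.93 to 17 and 9.61 to 10.6 in SS, and 10.4 to 16.3 and 16.1 to 19.5 in AA. Summed adipocyte markers were 6.46 to 7.4 and 4.53 to 5.32 in SS, and 7.94 to 15.5 and 12.3 to 13.2 in AA. Whether these markers have a part in any difference of response was not tested.

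Several groups held no call. None of 20 sterol and fatty acid genes passed for the difference, although 4 fell in SS: Scd2, a fatty acid desaturase (D8 1.15), Elovl6, an elongase (1.21), Nsdhl (0.99) and Idi1 (0.71), both of cholesterol synthesis. None of 23 interferon response genes passed (median D8 -0.48), nor any of 23 NRF2 and glutathione genes (-0.11), 26 translation initiation factors (-0.44) or 29 proteasome subunits (-0.25). The same held for 27 ribosomal proteins (-0.07), 23 respiratory chain genes (-0.06), 18 heat shock and mitochondrial chaperones (-0.29) and 13 glycolytic enzymes (-0.16). With a median SE of 0.36 over all probe sets, differences of the size of these medians were not detectable in single genes by this design.

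The named calls differed in how far they rested on single arrays. Of the 56 named genes that were called, 7 stayed called when any 1 of the 8 arrays was left out: Gadd45a, Akap8l, Tspyl4, Fos, Ppp1r15a, Ddit3 and Mt4. Another 13 stayed called in 5 to 7 of the 8 omissions: Stmn3, Atf3, Cars, Ddit4, Egr1, Cebpg, Lars, Slc1a4, Lox, Col3a1, Vegfd, Fmod and Camk2b. A further 30 stayed called in 1 to 4. The remaining 6 lost the call in every omission: Trib3, Ccnd2, Nfkb2, Aars, Iars and Cx3cl1. Without the second AA array at 8 h, 31 of the 56 were called. The sign of D8 was the same in all omissions for each of the 56. Of 15 called genes with another probe set, 6 had one of opposite sign (Fos, Atf3, Fmod, Egr1, Cx3cl1 and Lox).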

How the data were processed

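Of the series' 24 arrays of total RNA from mouse fibroblasts, 12 (6 groups of 2 arrays) enter the fit. The deposited values are ratios: 91.5% of probe sets have a median within 0.01 of 1 over the 24 arrays, with a floor of 0.01. How the authors made these ratios (image analysis, summarisation, scaling) is not given in the sources used here. Log2 values were taken after adding 0.2468 to each ratio, a pseudocount equal to the median of all values divided by 4, which understates changes of low genes. Limma 3.58.1 (R 4.3.3) fitted group means (residual degrees of freedom: 6; prior variance trended on the mean; two-sided), adjusted by Benjamini-Hochberg over 12422 probe sets, with no filter on low values; 66 control probe sets were left out. The script was tested on simulated data. Arrays give no counts, and their number limits the precision.

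Symbols came from GEO's platform annotation: 10833 probe sets have 1, 396 several and 1193 none; 10817 matched RefSeq (GRCm38.p6), the source of the promoters. Each gene was read by 1 probe set (fewest floor values, plain suffix, lowest number). Named were the 12 most negative and 12 most positive called genes with non-overlapping arrays, a preset panel, up to 4 members per list, and, after their values were seen, Nupr1, Atf5, Aars, Iars, Farsb, Kif3a, Acta1, Ddr2, Fap, Fn1, Vim and the list members named as missing the threshold or as falling in SS. Members and lists were chosen with earlier results of these data known. The eIF2alpha protein stretch planned is not used here. Alternatives changed the pseudocount, filter, arrays fitted, scaling, weights, prior and replicates.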

Additional observations from a re-analysis of the deposited data

Results flagged for a closer look

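These differences between the lines passed a test of the difference itself, the limma test of D8 (AA response minus SS response, log2 units), among the named genes. No group holds enough arrays for a test of single outlying arrays. The response was lower in AA by more than 2 log2 units in Car6 (-5.12), Usp17la (-3.41), Gch1 (-3.14), Kitl (-3.05), Gadd45a (-2.97), Akap8l (-2.92), Tspyl4 (-2.86), Fos (-2.71), Ppp1r15a (-2.71), Stmn3 (-2.64), Ddit3 (-2.56), Atf3 (-2.53), Cars (-2.15), Ddit4 (-2.11), Egr1 (-2.07), Nupr1 (-2.03), Trib3 (-2.004). It was lower by a smaller difference in Atf5 (-1.85), Ero1b (-1.74), Herpud1 (-1.73), Ndrg1 (-1.69), Xbp1 (-1.66), Cebpg (-1.65), Lars (-1.65), Ero1a (-1.59), Slc1a4 (-1.50), Psph (-1.49), Cnpy2 (-1.49), Tars (-1.46), Nars (-1.45), Farsb (-1.43), Ccnd2 (-1.38), Klf4 (-1.36), Nfkb2 (-1.22), Aars (-1.16), Iars (-0.96). It was higher in AA in Camk2b (4.59), Fmod (3.70), Mt4 (3.70), Slc6a4 (3.41), Asgr1 (3.30), Vegfd (3.19), Tpbpa (3.08), Cpxm1 (3.05), Ccl7 (2.95), Fst (2.92), Spock2 (2.85), Rpl39l (2.64), Hal (2.25), S100a4 (2.24), Col3a1 (2.03), Cx3cl1 (1.87), Sparc (1.82), Col1a2 (1.65), Lox (1.62), Thy1 (1.34). These are 36 genes with a lower and 20 with a higher response in AA, and how far each call rests on single arrays is given with the named genes above.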

How the results depend on the processing

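The number of probe sets called for the difference of the 8 h responses (258) was 647 with the 7369 probe sets never at the floor on 24 arrays, which hold 173 of the 258, and 16 with the 8 arrays alone, which leave fewer degrees of freedom. It was 394 with 24 arrays and that filter, 149 after quantile normalization (148 of the 258) and 141 with array weights. It ranged from 21 to 515 when single arrays were left out. The remaining settings, apart from the replicate block, gave 233 to 377. In the SS line the number (934) was 0 with the arrays of the groups compared alone and 614 after quantile normalization, and 162 to 448 when single arrays were left out. In the AA line (0) it was 15 with 24 arrays and 0 to 50 when single arrays were left out. For the change from 4 h to 8 h (1) it was 39 with 24 arrays, 3 with each array centred, 2 with a robust prior and 0 with the groups compared alone, with 24 arrays and the filter, with an untrended prior or with the replicate block, and 0 to 7 when single arrays were left out. Beyond the degrees of freedom and the genes tested, the cause was not tested.

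Same-numbered arrays of different groups correlated at -0.08 to 0.13 in their deviations over 15 group pairs, 1 of them above 0.1. The main fit did not pair arrays by number. Low correlations over all probe sets cannot exclude a pairing for some groups or genes. With the replicate number as a block, the count for the difference was 171 (57 higher, 114 lower), in SS 847, in AA 0 and for the later change 0.

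For single named genes, 1250 values under alternatives were compared: 857 kept direction and side of the threshold, 380 kept the direction and missed it, 9 newly passed it and 4 changed sign. All 4 were Eif2ak3, between -0.21 and 0.33 when single arrays were left out: -0.21 without the first untreated SS array, -0.01 without the first SS array at 8 h, -0.12 without the second untreated AA array and -0.04 without the second AA array at 8 h. With 2 arrays a group and a median SE of 0.36, smaller differences are beyond this design.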

Other observations

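Some probe sets that changed in the SS line had an AA estimate of the same sign with an unadjusted p under 0.05. Of the 609 that rose in SS, 7 had the same sign and 21 the opposite sign at such a p. Of the 325 that fell, the counts were 10 and 18, and over all 12422 probe sets 382 and 469. Apcs, which encodes serum amyloid P component, had a response of 1.497 in SS and 1.19 in AA, and its D8 of -0.30 was far from the threshold (limma adjusted p = 0.777). Akap8, a nuclear anchoring protein of protein kinase A and a relative of Akap8l, had responses of -0.65 and -0.48, where Akap8l itself had a D8 of -2.92. Gpr19, an orphan receptor, had 1.04 and 0.71, and Fancm, a DNA repair helicase, 1.23 and 0.68. The chemokine Cxcl5 had -1.595 and -0.73. None of these AA responses passed the limma test, and these 5 were picked after their values were seen, from the 17 such probe sets among the 934 that changed in SS, so they are given as values only. The AA estimate was the smaller one in each of the 5.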
